A study of Rattus norvegicus with 44 samples.

Results

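The genes described here are those whose RNA came up between postnatal day 15 and postnatal day 21, about the age at which rat pups move from milk to solid food, in the kidney cortex of wild type (WT) male rats. A protein coding gene was taken when its WT mean at postnatal day (PND) 21 was at least 5 FPKM (read fragments scaled for gene length and sequencing depth) and at least 2.5 times each of the WT means at PND0, PND5 and PND15. The rule found 74 of 22293 protein coding genes, in a table of 32545 genes. The genes were chosen by their WT values in all 4 ages, so WT values are given only as a description. The question tested is whether the same genes came up in the libraries labelled Het and Homo, the heterozygous and homozygous genotypes at Xdh, the gene for xanthine dehydrogenase, which makes uric acid from hypoxanthine and xanthine. The study sequenced poly-A RNA of 44 kidneys in 12 groups, each of 3 or 4 libraries: WT had 4, 3, 4 and 3 at PND0, PND5, PND15 and PND21, Het had 3, 4, 4 and 4, and Homo had 4, 4, 4 and 3. All animals were male and whole litters were collected, but the labels tie no animal to a litter, do not say what kind of Xdh allele the rats carried, name no strain, and do not say whether the PND21 pups had been weaned. Reads counted per library ran from 12686228 to 23329418.

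The proximal tubule of the kidney cortex takes back sugars, amino acids and salts from the filtrate and secretes drugs, bile acids and other organic ions. In rodents this segment finishes maturing around weaning, when glucocorticoid and thyroid hormone have risen and diet changes from fat-rich milk to chow. Enzymes that conjugate, oxidise or reduce foreign and endogenous compounds, and the carriers that move the products, belong to its adult program.

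The summed level of 20 proximal tubule marker genes at PND21 was 14606 to 17452 FPKM in WT, 15330 to 17160 in Het and 4352 to 7753 in Homo. Xdh itself followed the labels at PND15, with 17.8, 14.1, 14.2 and 16.9 FPKM in WT, 8.95, 13.2, 11.2 and 10.4 in Het and 6.46, 4.95, 8.03 and 2.87 in Homo. At PND21 it was 22.3, 24.9 and 25.4 in WT, 17.9, 9.70, 12.2 and 13.002 in Het and 13.5, 16.6 and 18.0 in Homo, so Homo and Het overlapped there. At PND0 the levels went against the labels, with 26.8 FPKM in 1 library labelled Het and 22.5 and 11.7 in 2 libraries labelled Homo. PND0 libraries of Het and Homo enter the tests here only through the shared estimate of spread and the filter on low values. They also enter the repeat of the rule, the heat map and the plot of the course over ages. One library of PND15 Het, replicate 2, stood apart. Its log2 profile over all genes tested correlated with the other PND15 Het libraries at a mean Pearson r of 0.964 and with PND21 WT at 0.969, across genes. Calls of the rise in Het and of the difference between the rises that changed without it are given both ways. The counts of other comparisons with PND15 Het are given with it.

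The Het libraries repeated the rise for most of the 74 genes, and the Homo libraries for fewer, from a lower level. From PND15 to PND21, 57 of 74 genes rose in Het and none fell, where 11.4% of the 16283 genes tested rose and 7.28% fell. In Homo 32 rose and none fell, where 7.3% of genes tested rose and 5.39% fell. All 74 genes passed the filter on low values. A gene is said to have risen or fallen when its adjusted p in limma, on log2(FPKM + 1) and adjusted over all genes tested, was under 0.05.

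Over the 74 genes the median difference was 1.15 log2 units in Het and 0.68 in Homo, beside 0.01 over all genes tested in each genotype. The difference was above 0 for 73 genes in Het and 64 in Homo. Every PND21 library lay above every PND15 library for 45 genes in Het, against 11% of genes tested, and for 30 in Homo, against 12.5%. The rise was called in both genotypes for 27 genes, in Het alone for 30, in Homo alone for 5 (Adamtsl2, Sgk1, Spink1, Cidec and Gsta1) and in neither for 12.

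**Figure D1:**
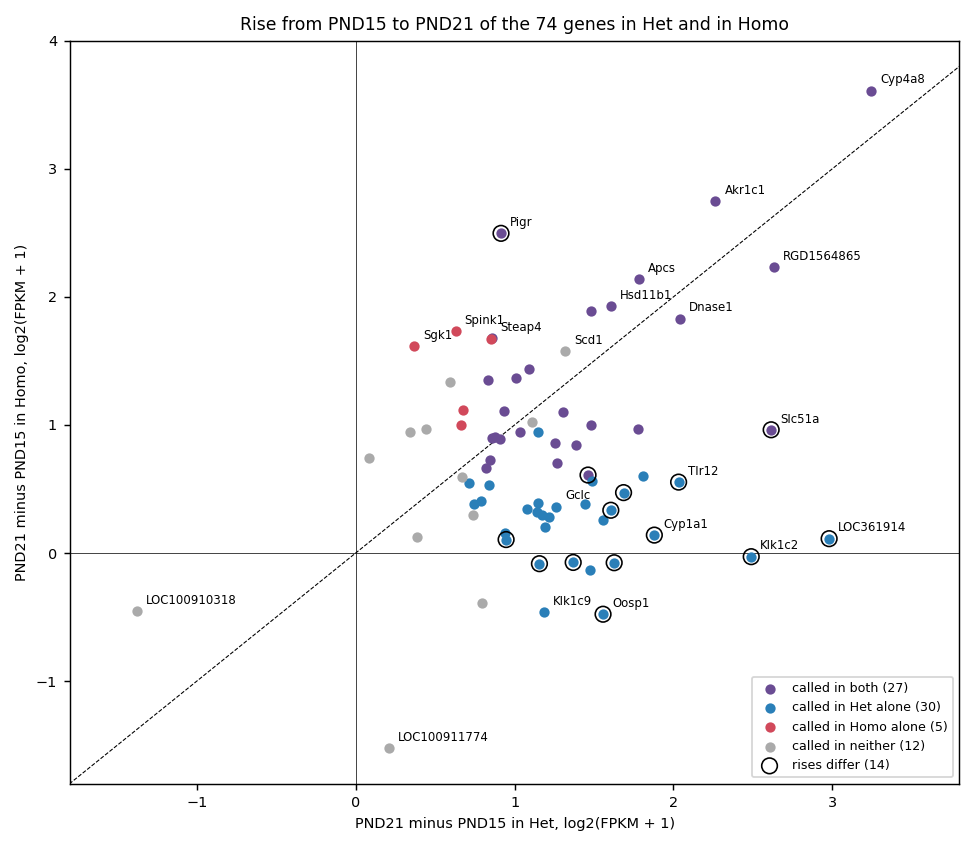
Each point is 1 of the 74 genes, with the PND21 minus PND15 difference of mean log2(FPKM + 1) in Het on the x axis and in Homo on the y axis, and the dashed line marks equal differences. Colours give the genotypes in which the rise passed the test (27 in both, 30 in Het alone, 5 in Homo alone, 12 in neither), and rings mark the 14 genes whose rises differed between the genotypes, 13 of them under the line and Pigr above it.

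Leaving out PND15 Het replicate 2 gave 64 genes rising in Het, the added 7 being Prodh (1.37 log2 units), Rasgef1b (0.97), Mpv17l (0.75), Gldc (1.68), Spink1 (1.05), Gsta1 (0.96) and Adamtsl2 (1.10), with adjusted p from 0.003 to 0.048 in limma. All 3 PND21 Homo libraries have title numbers of 100 and above, while of PND21 Het only replicate 1 does, and what the numbers stand for is not given; with that Het library alone, 23 genes rose in Het. Rescaling each library to the same summed FPKM (TPM) moved the median of all genes tested to −0.19 in Het and −0.11 in Homo and turned the calls over all genes from 1858 higher and 1186 lower to 506 and 4760 in Het, and from 1188 and 877 to 714 and 1945 in Homo; of the 74 genes, 52 and 30 rose on that scale.

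Applied unchanged to the other genotypes, the rule for level and fold was met in Het by 27 of the 74 genes, against 0.175% of all protein coding genes (39 genes), and in Homo by 12 of the 74, against 0.493% (110 genes). In all 3 genotypes it was met by 4 of the 74: Akr1c1, RGD1564865, Cyp4a8 and Apcs. The 12 in Homo were these 4 with Gba3, Hsd11b1, Pigr, Scd1, Sgk1, Spink1, Steap4 and Zfp354a.

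The difference between the 2 rises was tested directly, as the Homo rise minus the Het rise. It was smaller in Homo for 13 of the 74 genes (1.4% of genes tested) and larger for 1, Pigr (1.76% of genes tested). The 13 were LOC361914, Klk1c2, Oosp1, Cyp1a1, Baat, Slc51a, Tlr12, Gcgr, Hsd17b1, Aadat, Nr1d1, Acss2 and F13b. LOC361914 and Baat kept this call under all 8 other settings and with each of 15 libraries left out in turn. Among these 8, here and below, scaling by median ratio could lose no call, because its factor was the same in every library (0.9999961). Without PND21 Homo replicate 1, 8 genes were called smaller, and with only the 4 groups compared in the fit 4 were. Of the 30 genes whose rise was called in Het alone, 11 passed this test of the difference.

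At PND21 the levels stood far apart. Homo was lower than Het for 51 of the 74 genes (20.5% of genes tested were lower) and higher for 5 (20.4%): Steap4, Spink1, Apcs, Pigr and Cyp4a8. Homo libraries lay wholly under Het for 51 genes (21.9% of genes tested) and wholly above for 5 (22.6%). The median gene stood in Homo at 40.3% of its Het mean, with 42 genes under 50% and 11 over 100%. The Het mean was close to the WT mean that chose the genes (median 100.3% of WT). In TPM, where the median of all genes was 0.21 and the calls over all genes went from 3323 higher and 3336 lower to 6120 and 1687, 45 of the 74 were lower and 8 higher. Homo was already lower at PND15 for 43 of 74 genes (11.6% of genes tested) and higher for 3 (12.9%): LOC100911774, Il34 and Cyp4a8. Libraries did not overlap at PND15 for 37 genes lower (11.9%) and 2 higher (10.8%). In TPM the PND15 counts were 39 and 5, and over all genes 3857 higher and 1075 lower where FPKM gave 2104 and 1889.

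Markers of injury and of leukocytes moved with genotype beside these results, and their part in them was not tested. At PND21 the summed level of 21 tubular injury genes was 1047 to 1679 FPKM in Het and 11285 to 13755 in Homo, and 19 of 20 tested were higher in Homo. The 15 macrophage and dendritic cell genes summed to 445 to 502 FPKM in Het and 1673 to 2505 in Homo, with 15 of 15 higher. Of 20 proximal tubule markers 18 were lower in Homo. Over all genes tested, 20.4% were higher and 20.5% lower in Homo at PND21. In bulk tissue, fewer cells of a type and less RNA per cell cannot be told apart.

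**Figure D2:**
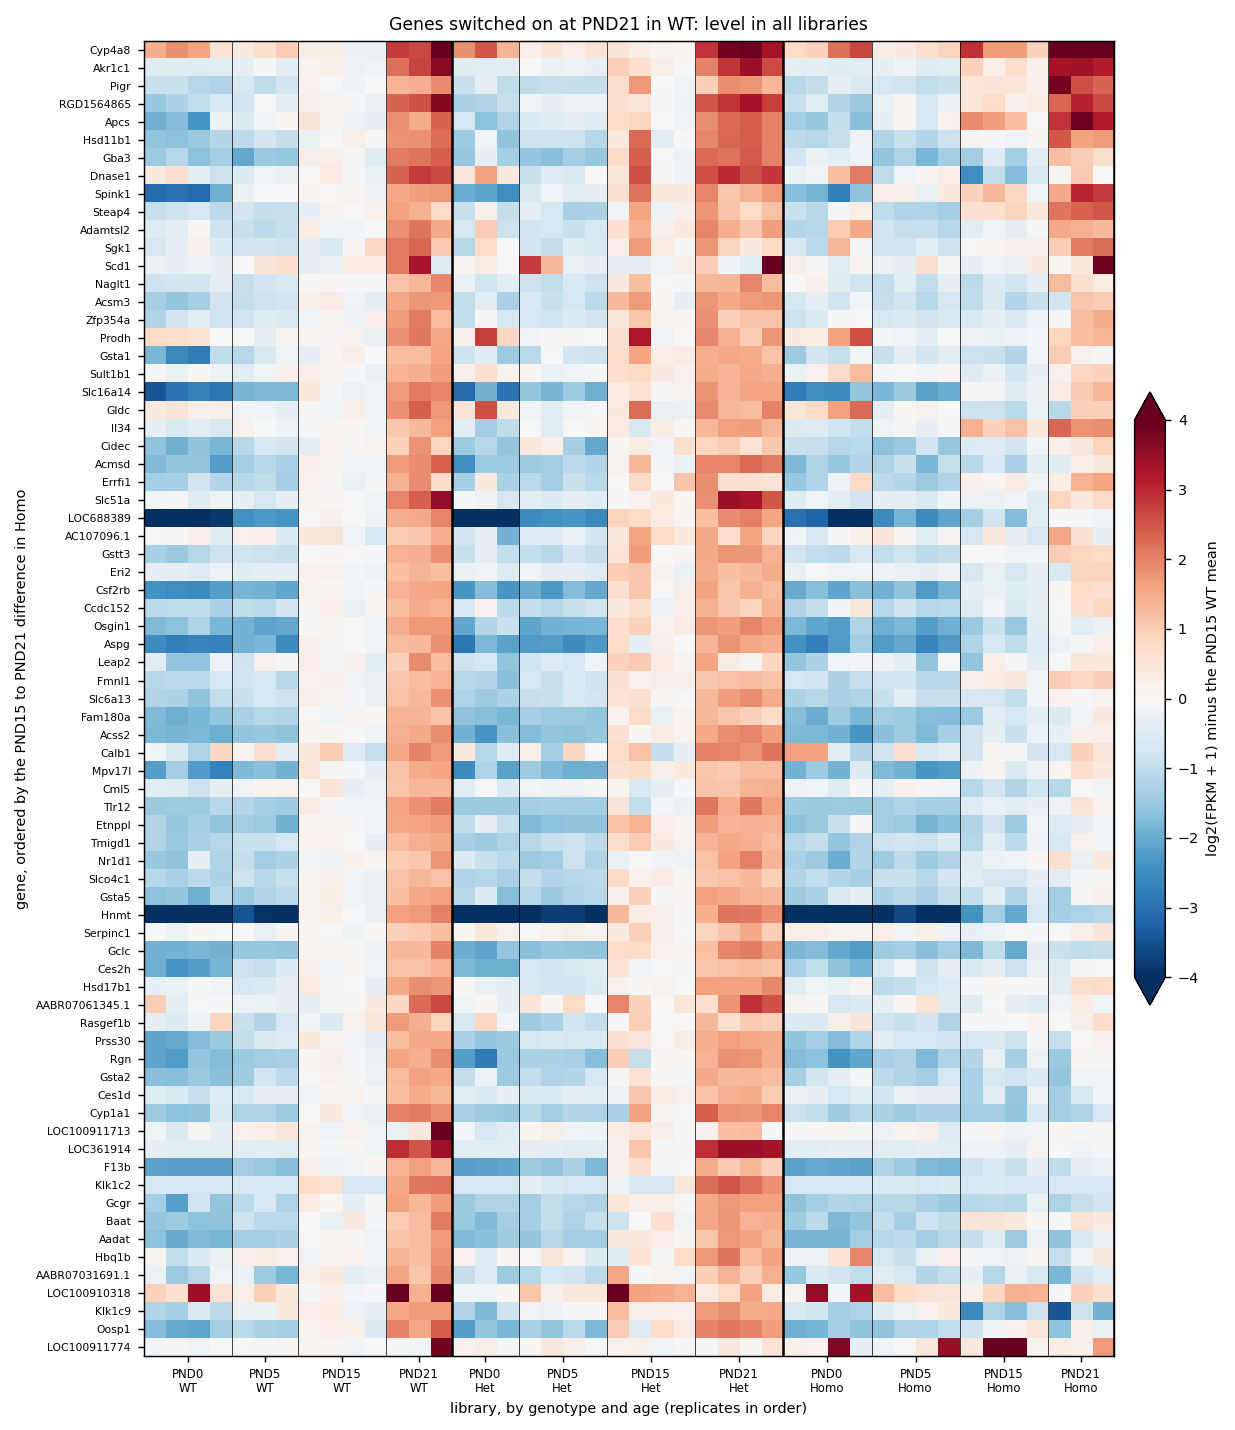
Each row is 1 of 73 of the 74 genes, ordered by its PND15 to PND21 difference in Homo, and each column 1 of the 44 libraries. Colour is log2(FPKM + 1) minus the PND15 WT mean, limited to 4 in either direction; the PND21 columns of WT and Het are red for nearly all genes, those of Homo mainly for the upper rows, and PND15 Het replicate 2 shows red for several genes that the other PND15 Het libraries do not.

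Of the 74 genes, 7 encode carriers that move solutes across tubule membranes; 7 of 7 rose in Het, 4 of 7 rose in Homo and 7 of 7 were lower in Homo than in Het at PND21. Slc51a, the alpha subunit of the organic solute transporter that passes bile acids and steroids out of the cell, was 4.41, 5.35, 6.38 and 4.87 FPKM in the PND15 Het libraries and 18.8, 60.02, 53.7 and 30.7 at PND21. In Homo it was 3.8001, 3.71, 4.15 and 2.99 at PND15 and 9.10, 6.499 and 8.78 at PND21. The gene lies at chr11:71533078-71547476, plus strand (coordinates are those of the deposited table, whose build is not stated). Both genotypes rose without overlap, by 2.62 ± 0.24 (SE, adjusted p = 2.3e-09) log2 units in Het and 0.96 ± 0.26 (SE, adjusted p = 0.01) in Homo, and the Homo rise was smaller, with a difference of −1.65 ± 0.35 (SE, adjusted p = 0.0054). That difference was no longer called in 4 of 8 other settings.

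LOC361914 and LOC688389 lie 191511 bases apart on chromosome 2, and the table describes both as similar to Slc7a12, an amino acid transporter; reads of such close copies may have been split between them. LOC361914, at chr2:88453812-88553086, minus strand, had the largest WT ratio of the 74 genes, 26.3 times, with 9.71, 6.84 and 13.1 FPKM in WT at PND21 and 0.490, 0.335, 0.458 and 0.226 at PND15. It reached 9.37, 13.9, 13.9 and 12.9 in Het and 0.393, 0.259 and 0.331 in Homo, where PND15 had been 0.199, 0.163, 0.0822 and 0.503. The gene thus came up in WT and Het libraries and stayed under 1 FPKM in each Homo library of both ages. Its difference between the ages was 2.98 ± 0.17 (SE, adjusted p = 4.1e-15) in Het, 0.11 ± 0.18 (SE, adjusted p = 0.77) in Homo, and smaller in Homo, with a difference of −2.87 ± 0.25 (SE, adjusted p = 8.3e-10). LOC688389, expressed far higher, was 42.8, 64.6, 32.1 and 79.7 FPKM at PND15 and 102, 102 and 97.5 at PND21 in Homo, against 201, 187, 137 and 115.8 and 252, 405, 435 and 325 in Het. Its difference in Homo was 0.95 ± 0.34 (SE, adjusted p = 0.067), which missed the threshold, and in Het it rose by 1.15 ± 0.32 (SE, adjusted p = 0.011).

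The other carriers are Slc6a13, which takes up GABA, betaine and taurine, the organic anion carrier Slco4c1, the orphan monocarboxylate carrier Slc16a14 and the sodium-linked glucose transporter Naglt1. Naglt1 rose in Homo by 1.43 ± 0.25 (SE, adjusted p = 0.00015), from 22.6, 32.05, 27.1 and 35.7 to 115, 74.6 and 59.5 FPKM, and in Het by 1.09 ± 0.24 (SE, adjusted p = 0.0013). The highest PND21 Homo library of Naglt1, replicate 1, lay within the Het values of 120.4, 120.2, 188 and 113 and the other two lay under them. Slc6a13 and Slc16a14 also rose in both, and Slco4c1 rose in Het with 0.41 ± 0.14 (SE, adjusted p = 0.052) in Homo. Among 39 other tested genes of organic anion, cation and bile acid transport, 15 rose in Het and 9 in Homo, and none fell. Of all genes tested, 11.4% and 7.3% rose. At PND21, 27 of the 39 were lower in Homo and 2 higher, where 20.5% and 20.4% of genes tested were.

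Another 11 of the 74 genes make glutathione or attach glutathione, sulfate, acyl, acetyl or methyl groups to small molecules, or respond to oxidative stress; 10 of 11 rose in Het, 5 of 11 rose in Homo, and 11 of 11 were lower in Homo at PND21. Gclc, the catalytic subunit of the rate-limiting step of glutathione synthesis, at chr8:85059051-85097468, plus strand, was 553, 572, 377 and 355 FPKM at PND15 and 758, 1276, 1367 and 1060.2 at PND21 in Het. In Homo it was 94.3, 165, 80.5 and 249.8 and then 179.9, 163 and 171, so that the ages overlapped. Het rose by 1.26 ± 0.22 (SE, adjusted p = 0.00011), the Homo difference was 0.36 ± 0.24 (SE, adjusted p = 0.37), and Homo was lower at PND21, with a difference of −2.66 ± 0.24 (SE, adjusted p = 3.5e-11). Hnmt, which inactivates histamine by methylation, was 8.68, 9.32 and 10.1 FPKM at PND21 in Homo against 66.2, 107, 103 and 85.7 in Het. Every PND21 Homo value of Hnmt lay under every PND15 Het value, the lowest of which was 22.3.

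Baat, which joins bile acids to glycine or taurine, overlapped between the genotypes before the rise. It was 4.51, 4.54, 4.07 and 3.05 FPKM at PND15 in Homo and 1.19, 2.79, 5.03 and 2.51 in Het. At PND21 Het stood at 10.4, 12.005, 9.17 and 9.60 and Homo at 2.68, 4.72 and 4.09. The difference between the ages was 1.63 ± 0.21 (SE, adjusted p = 1.8e-06) in Het and −0.08 ± 0.23 (SE, adjusted p = 0.89) in Homo, and the difference between them passed the test at −1.70 ± 0.31 (SE, adjusted p = 0.00095).

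Of the glutathione transferases, 3 are of the alpha class. Gsta2 (23.7, 34.1, 23.8 and 22.2 then 66.6, 57.8, 58.9 and 55.5 FPKM) and Gsta5 rose in Het, while in Homo Gsta2 went from 8.62, 14.3, 12.7 and 15.3 to 6.998, 20.4 and 20.7, with PND21 replicate 1 the lowest library of both ages. Gsta1 rose in Homo, from 15.8, 15.4, 12.7 and 27.3 to 60.3, 33.1 and 27.7 by 1.12 ± 0.35 (SE, adjusted p = 0.03), and in Het, where PND15 replicate 2 was already at 89.2 FPKM, the difference was 0.68 ± 0.33 (SE, adjusted p = 0.15). Without that library Gsta1 also rose in Het, by 0.96 (adjusted p = 0.036 in limma). The rises of Gsta1 and of Gsta2 did not differ between genotypes by the test. These genes are close copies, and the Gsta1 gene model overlaps that of Gsta3, so their reads may have been shared.

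Promoter windows of 300 bases around a RefSeq start site (build GRCr8) were at hand for 47 of the 74 genes, in 54 windows. The letters TGACNNNGC, the core of the element bound by NRF2 and by AP-1 factors, were searched on both strands and found in 7 of 54 member windows (12.96%) and in 12.1% of all 33469 windows. They are in the windows of Gsta1 and Gsta2, shown here because the match is in both of these related genes; the capitals mark the match, at base 281 of the Gsta1 window and base 287 of the Gsta2 window, where it is read on the other strand. The Gsta1 window is chr9:31216483-31216782, minus strand, and the Gsta2 window chr8:88077043-88077342, minus strand, both read 5′ to 3′ along the gene. Other letters searched gave TATAAA in 9 member windows (16.7%, and 14.2% of all windows) and TTATGNAA, bound by clock output factors, in 1 (1.85% and 3.66%). The receptor element for glucocorticoid and androgen was in 2 (3.70% and 3.16%), those of Nr1d1 and Pigr, and the direct repeat of HNF4 and PPAR in 0 (0.415% of all). A match describes letters and no measured binding.
Gsta1: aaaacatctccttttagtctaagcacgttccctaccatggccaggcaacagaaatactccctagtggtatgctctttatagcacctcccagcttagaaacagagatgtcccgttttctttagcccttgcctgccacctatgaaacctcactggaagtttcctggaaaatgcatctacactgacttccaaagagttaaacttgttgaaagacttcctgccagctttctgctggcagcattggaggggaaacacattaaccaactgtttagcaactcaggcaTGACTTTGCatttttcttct
Gsta2: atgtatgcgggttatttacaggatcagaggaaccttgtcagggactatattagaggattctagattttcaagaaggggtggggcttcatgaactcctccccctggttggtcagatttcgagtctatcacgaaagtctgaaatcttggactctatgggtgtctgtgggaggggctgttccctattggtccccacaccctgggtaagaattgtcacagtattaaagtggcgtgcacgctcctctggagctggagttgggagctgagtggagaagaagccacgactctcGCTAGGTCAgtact

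The remaining 5 genes of the group were Gstt3, a theta class transferase, Sult1b1, a sulfotransferase, Acsm3, a medium-chain acyl-CoA synthetase, Osgin1, a gene induced by oxidative stress, and Cml5, a camello-like acetyltransferase gene. In Homo Gstt3 went from 70.2, 69.9, 63.6 and 64.6 to 139, 129 and 121.8 FPKM, a rise of 0.94 ± 0.21 (SE, adjusted p = 0.0021), and in Het PND21 was 202, 241, 241 and 185. Sult1b1, Acsm3 and Osgin1 also rose in both genotypes. Acsm3 overlaps the end of Eri2 on chromosome 1, both rose in both genotypes, and without strand-specific counting their reads cannot be told apart. Cml5 rose in Het by 1.49 ± 0.19 (SE, adjusted p = 1.6e-06) and in Homo the difference was 0.56 ± 0.21 (SE, adjusted p = 0.07). Among 25 other tested conjugation genes, 13 rose in Het and 10 in Homo. Among 21 others of glutathione and the NRF2 response, 7 and 8 did, where 11.4% and 7.3% of genes tested rose. At PND21, 16 of the other conjugation genes were lower in Homo and 2 higher. Of the other glutathione and NRF2 genes 8 were lower and 6 higher, where 20.5% and 20.4% of genes tested were.

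**Figure D3:**
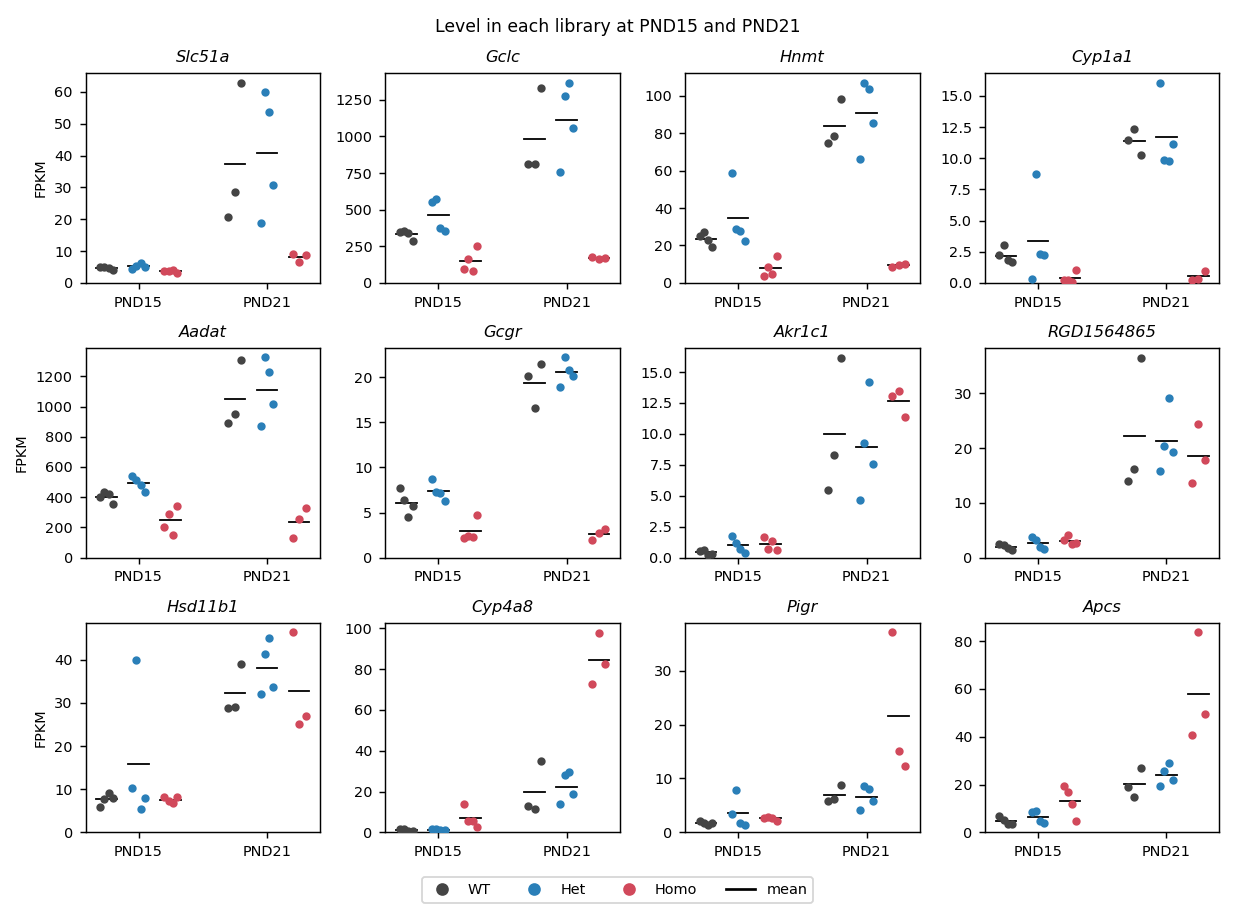
Points are FPKM in single libraries at PND15 and PND21, coloured by genotype, with the group mean as a line, for 12 of the genes; the y axes start at 0 and differ between panels. Slc51a, Gclc, Hnmt, Cyp1a1, Aadat and Gcgr show PND21 Homo libraries far under Het and WT, Akr1c1, RGD1564865 and Hsd11b1 show the 3 genotypes at like PND21 levels, and Cyp4a8, Pigr and Apcs show Homo above the others.

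A further 9 of the 74 genes encode enzymes that oxidise, reduce or hydrolyse steroids, fatty acids and drugs; 9 of 9 rose in Het and 4 of 9 in Homo. Akr1c1 and RGD1564865, neighbouring aldo-keto reductase genes 8106 bases apart on chromosome 17, the second described as similar to 20-alpha-hydroxysteroid dehydrogenase, rose in both genotypes. Akr1c1 went from 1.67, 0.683, 1.32 and 0.609 to 13.04, 13.5 and 11.4 FPKM in Homo and from 1.73, 1.19, 0.664 and 0.414 to 4.63, 9.24, 14.2 and 7.57 in Het. The rise was 2.75 ± 0.24 (SE, adjusted p = 1.1e-09) in Homo and 2.26 ± 0.22 (SE, adjusted p = 1.1e-08) in Het, and at PND21 the difference between them was 0.55 ± 0.24 (SE, adjusted p = 0.068). RGD1564865 rose by 2.23 ± 0.27 (SE, adjusted p = 3.4e-07) in Homo and 2.63 ± 0.25 (SE, adjusted p = 3.9e-09) in Het, to 13.6, 24.4 and 17.7 and 15.8, 20.4, 29.2 and 19.3 FPKM. As close copies they may share reads.

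Cyp4a8, a cytochrome P450 of the fatty acid hydroxylase family at chr5:133978954-134008255, minus strand, rose by more than any other of the 74 genes in both genotypes on the log2(FPKM + 1) scale. It was 14.1, 5.33, 5.40 and 2.78 FPKM at PND15 and 72.5, 97.8 and 82.3 at PND21 in Homo, and 1.85, 1.43, 1.15 and 1.13 and then 13.7, 27.9, 29.4 and 18.8 in Het. Every Homo library lay above every Het library at both ages. The rise was 3.61 ± 0.40 (SE, adjusted p = 8.3e-08) in Homo and 3.24 ± 0.37 (SE, adjusted p = 2.3e-07) in Het, and Homo was higher at PND21 by 1.91 ± 0.40 (SE, adjusted p = 0.0002). Hsd11b1, which regenerates active glucocorticoid from its inert form, was 8.20, 7.25, 6.79 and 8.15 and then 46.5, 25.01 and 27.0 FPKM in Homo, rising by 1.93 ± 0.35 (SE, adjusted p = 0.00021). In Het it was 10.4, 39.9, 5.30 and 7.91 and then 32.1, 41.3, 45.1 and 33.6, so PND15 replicate 2 already lay among the PND21 values. Hsd11b1 rose in Het by 1.60 ± 0.33 (SE, adjusted p = 0.0007) with that library and by 2.17 without it (adjusted p = 1.7e-07 in limma).

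The other 5 enzymes went the other way: 5 of 5 rose in Het, 0 of 5 passed the test in Homo, and 5 of 5 were lower in Homo at PND21. Cyp1a1, the classic target of the aryl hydrocarbon receptor, was 16.02, 9.84, 9.78 and 11.2 FPKM at PND21 in Het and 0.230, 0.341 and 0.970 in Homo, after 0.210, 0.242, 0.0542 and 1.06 at PND15. Its difference between the ages was 1.88 ± 0.31 (SE, adjusted p = 6.2e-05) in Het and 0.14 ± 0.34 (SE, adjusted p = 0.86) in Homo, and the difference of −1.74 ± 0.46 (SE, adjusted p = 0.026) was lost in 6 of 8 other settings and with any of 5 of 15 libraries left out. These were PND15 Het replicate 1, PND15 Homo replicate 4, PND21 Het replicate 1 and PND21 Homo replicates 1 and 2, with values from −1.67 to −1.27. Hsd17b1, which forms estradiol, overlapped between genotypes at PND15, with 4.31, 3.89, 4.13 and 3.79 in Het and 3.51, 3.94, 3.57 and 3.82 in Homo, and then 13.8, 13.3, 13.4 and 16.9 and 2.40, 6.61 and 7.06. The rise of Hsd17b1 was smaller in Homo, with a difference of −1.27 ± 0.25 (SE, adjusted p = 0.0027), a call lost in 2 of 8 other settings. The carboxylesterases Ces1d and Ces2h differed between ages in Homo by 0.16 ± 0.25 (SE, adjusted p = 0.76) and 0.34 ± 0.18 (SE, adjusted p = 0.23); Ces1d overlaps another coding gene in the table. Among 29 other tested genes of this kind 7 rose in Het (11.4% of genes tested). In Homo 6 rose (7.3%) and 1 fell (5.39%). At PND21, 16 of the 29 were lower in Homo and 4 higher (20.5% and 20.4%).

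Amino acids and amines are broken down by the products of 6 of the 74 genes; 4 of 6 rose in Het, 2 of 6 in Homo and 5 of 6 were lower in Homo at PND21. Aadat, the aminotransferase that turns kynurenine into kynurenic acid, at chr16:32832061-32868702, minus strand, was among the most abundant of the 74 genes, at 869.7, 1328, 1227 and 1017 FPKM in Het at PND21 and 542, 512, 482 and 434 at PND15. In Homo it was 205, 287, 149.3 and 344 and then 129.7, 256 and 326. Het rose without overlap and the Homo ages overlapped. The difference between the ages was 1.16 ± 0.20 (SE, adjusted p = 0.00012) in Het and −0.08 ± 0.22 (SE, adjusted p = 0.87) in Homo, and smaller in Homo, with a difference of −1.24 ± 0.30 (SE, adjusted p = 0.013), a call lost in 3 of 8 other settings and without PND21 Homo replicate 1 (−0.86, adjusted p = 0.104 in limma).

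Acmsd, which draws a later tryptophan metabolite away from NAD synthesis, rose in both genotypes. In Homo it went from 18.3, 24.8, 15.7 and 29.1 to 28.9, 48.5 and 55.8 FPKM, by 0.97 ± 0.29 (SE, adjusted p = 0.021), and in Het it reached 161.3, 158, 198 and 174, by 1.78 ± 0.27 (SE, adjusted p = 1.8e-05). The difference between the rises of Acmsd, −0.81 ± 0.39 (SE, adjusted p = 0.28), did not pass. Without PND15 Het replicate 2, which was at 104.1 FPKM, Acmsd rose by 2.13 in Het. The difference between the rises was then −1.16 and passed, close to the threshold (adjusted p = 0.048 in limma). Aspg, an asparaginase, rose in both by 0.84 ± 0.25 (SE, adjusted p = 0.02) and 1.39 ± 0.23 (SE, adjusted p = 6.4e-05) in that order, and Etnppl, a phospho-lyase for phosphoethanolamine, rose in Het by 0.72 ± 0.26 (SE, adjusted p = 0.047). In Homo Etnppl differed by 0.54 ± 0.28 (SE, adjusted p = 0.22), and its rises did not differ by the test (−0.17 ± 0.38 (SE, adjusted p = 0.87)).

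Gldc, of the glycine cleavage system, and Prodh, the first enzyme of proline breakdown, did not pass the test in either genotype, and for both PND15 Het replicate 2 was far above its group. Prodh was 13.1, 86.7, 7.20 and 8.26 FPKM at PND15 in Het and 33.6, 23.6, 17.3 and 29.96 at PND21. In Homo Prodh was 6.78, 6.58, 6.85 and 7.49 and then 15.4, 20.2 and 21.99, with no overlap, a difference of 1.33 ± 0.53 (SE, adjusted p = 0.096). Among 39 other tested genes of amino acid and urea-related metabolism 11 rose in Het (11.4% of genes tested). In Homo 2 rose (7.3%) and 1 fell (5.39%). At PND21, 30 of them were lower in Homo and 4 higher (20.5% and 20.4%).

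Lipids and sugars are the substrates of 4 of the 74 genes, of which 2 rose in Het and 3 in Homo. Acss2, which makes acetyl-CoA from acetate, rose in Het from 70.8, 49.5, 57.9 and 51.6 to 136, 170.3, 181 and 151 FPKM and in Homo from 27.7, 35.2, 24.5 and 38.1 to 36.9, 54.2 and 54.1. The rise was 1.46 ± 0.15 (SE, adjusted p = 1.1e-08) in Het and 0.61 ± 0.16 (SE, adjusted p = 0.0067) in Homo, smaller in Homo, with a difference of −0.85 ± 0.21 (SE, adjusted p = 0.019). That call was lost in 3 of 8 other settings and without PND15 Homo replicate 2 (−0.79), PND15 Homo replicate 4 (−0.76) or PND21 Homo replicate 1 (−0.67), with adjusted p of 0.051, 0.063 and 0.12 in limma. Gba3, a cytosolic beta-glucosidase, rose in Homo by 1.89 ± 0.35 (SE, adjusted p = 0.00027) and in Het by 1.48 ± 0.33 (SE, adjusted p = 0.0015), yet was lower in Homo at PND21. Cidec, a lipid droplet protein, rose in Homo by 0.996 ± 0.34 (SE, adjusted p = 0.049), close to the threshold. Scd1, the desaturase that makes oleate, was high in single libraries of each genotype at PND21: 6.91, 17.6 and 0.346 FPKM in WT, 2.72, 0.653, 0.426 and 36.1 in Het and 1.02, 1.47 and 27.6 in Homo. The highest Scd1 value of Het and Homo at PND15 was 1.46, and neither genotype passed the test. The 12 fat tissue genes summed to 917 FPKM in the highest PND21 Homo library and 91.4 in the lowest, and their part in the Scd1 and Cidec values was not tested.

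Another 12 of the 74 genes encode secreted enzymes, inhibitors and defence proteins; 9 of 12 rose in Het and 5 of 12 in Homo, and at PND21 Homo was lower for 7 of 12 and higher for 3. Klk1c9 and Klk1c2, tissue kallikreins of a cluster on chromosome 1, were among those lower in Homo. Klk1c9, at chr1:100059967-100203329, plus strand, was 67.5, 33.7, 32.4 and 31.9 FPKM at PND15 and 93.6, 104.2, 81.7 and 83.4 at PND21 in Het, and 4.02, 11.4, 8.05 and 15.3 and then 1.72, 15.5 and 6.97 in Homo. Homo was lower at PND21, with a difference of −3.69 ± 0.37 (SE, adjusted p = 7.3e-10) log2 units, the largest difference among the 74 genes on the log2(FPKM + 1) scale. Klk1c2 was listed at 0 in all 3 PND21 Homo libraries and at 6.64, 8.36, 6.42 and 4.74 in Het. It rose in Het by 2.49 ± 0.23 (SE, adjusted p = 2.3e-09) on the log2(FPKM + 1) scale, which for a gene near 0 depends on the value of 1 that is added. Kallikrein copies are alike in sequence and their reads may have been shared.

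F13b, the carrier subunit of clotting factor XIII, rose in Het by 0.95 ± 0.16 (SE, adjusted p = 7.8e-05), from 4.44, 6.14, 3.58 and 3.57 to 11.6, 8.27, 10.2 and 7.58 FPKM. In Homo it stayed between 1.23 and 2.66 FPKM at both ages, with a difference of 0.11 ± 0.17 (SE, adjusted p = 0.78), and the difference between the rises of −0.84 ± 0.23 (SE, adjusted p = 0.038) was lost in 6 of 8 other settings and with any of 8 of 15 libraries left out. These were PND15 Het replicates 1, 3 and 4, PND15 Homo replicates 2 and 4, PND21 Het replicates 1 and 3 and PND21 Homo replicate 1, with values from −0.85 to −0.61. Its promoter window was the 1 of 54 member windows (1.85%) with the HNF1 site, named for a tubule and liver transcription factor, beside 0.335% of all windows. The window is chr13:53681389-53681688 in GRCr8, plus strand, and is shown for that match, in capitals from base 188 and read on the other strand.
F13b: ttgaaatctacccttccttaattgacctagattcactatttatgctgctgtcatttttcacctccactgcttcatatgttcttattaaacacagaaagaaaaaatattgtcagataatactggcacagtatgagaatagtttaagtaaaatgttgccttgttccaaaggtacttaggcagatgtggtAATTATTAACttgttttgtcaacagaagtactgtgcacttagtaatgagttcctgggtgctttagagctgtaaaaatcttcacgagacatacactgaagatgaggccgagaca

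Oosp1, named for secretion by oocytes, was 8.10, 2.24, 6.66 and 4.82 and then 17.4, 18.8, 17.3 and 13.7 FPKM in Het, and 1.61, 2.99, 4.23 and 5.54 and then 0.481, 4.34 and 2.83 in Homo. Het rose by 1.56 ± 0.30 (SE, adjusted p = 0.00044), and the Homo difference of −0.48 ± 0.33 (SE, adjusted p = 0.4) was smaller, with a difference of −2.03 ± 0.44 (SE, adjusted p = 0.0064). That call was lost in 4 of 8 other settings and without PND21 Homo replicate 1, at −1.50 with an adjusted p of 0.056 in limma. Prss30, a serine protease, and Serpinc1, the gene of antithrombin, rose in Het and were lower in Homo at PND21. Their rises were not called in Homo, and the difference between the rises did not pass, at −0.88 ± 0.27 (SE, adjusted p = 0.063) for Prss30 and −0.36 ± 0.22 (SE, adjusted p = 0.43) for Serpinc1. Dnase1, the secreted nuclease that digests extracellular DNA, rose in both genotypes though the levels stayed far apart. It was 2.31, 8.41, 4.55 and 10.95 and then 18.4, 37.7 and 17.3 FPKM in Homo, rising by 1.83 ± 0.52 (SE, adjusted p = 0.015), and 24.6, 111, 16.7 and 15.3 and then 111, 146, 107.7 and 132 in Het, rising by 2.04 ± 0.48 (SE, adjusted p = 0.0029). Without PND15 Het replicate 2, Dnase1 rose by 2.67 in Het (adjusted p = 4.9e-05 in limma).

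Of this group, 3 genes were higher in Homo than in Het at PND21. Pigr, the receptor that carries IgA across epithelia, at chr13:47572219-47591699, plus strand, went from 2.70, 2.81, 2.75 and 2.06 to 37.1, 15.02 and 12.3 FPKM in Homo and from 3.36, 7.83, 1.65 and 1.34 to 4.20, 8.58, 7.97 and 5.75 in Het. Homo libraries lay above all Het libraries at PND21. Pigr rose by 2.496 ± 0.30 (SE, adjusted p = 2.6e-07) in Homo and 0.91 ± 0.27 (SE, adjusted p = 0.017) in Het, and its rise was larger in Homo by 1.58 ± 0.40 (SE, adjusted p = 0.022), a call lost in 5 of 8 other settings. It was also lost without PND15 Homo replicate 4 (1.51), PND21 Het replicate 1 (1.41) or PND21 Homo replicate 1 (1.12).

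Apcs, the gene of serum amyloid P, was 19.6, 16.9, 11.7 and 4.67 and then 40.5, 83.7 and 49.4 FPKM in Homo and 8.39, 9.04, 4.57 and 4.03 and then 19.3, 25.6, 29.1 and 21.8 in Het. It rose by 2.14 ± 0.38 (SE, adjusted p = 0.00013) in Homo and 1.78 ± 0.35 (SE, adjusted p = 0.00047) in Het. Spink1, a trypsin inhibitor, reached 44.9, 132 and 112 FPKM at PND21 in Homo and 60.7, 33.7, 41.6 and 51.7 in Het, where replicate 1 of Homo lay among the Het values, and rose in Homo by 1.73 ± 0.36 (SE, adjusted p = 0.00087), with no call in Het unless PND15 Het replicate 2 was left out. The 12 liver marker genes summed to 42.9 to 48.3 FPKM in Het and 140 to 146 in Homo at PND21. Of 10 tested, only 3 were higher in Homo and 1 was lower (20.4% and 20.5% of genes tested). Their median difference was 0.009 log2 units, and their part was not tested. Adamtsl2, a matrix glycoprotein gene, rose in Homo by 1.67 ± 0.42 (SE, adjusted p = 0.0052), and the antimicrobial peptide gene Leap2 passed the test in neither genotype. Among 15 other tested secreted nucleases, proteases and inhibitors 7 rose in Het and 4 in Homo (11.4% and 7.3% of genes tested).

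**Figure D4:**
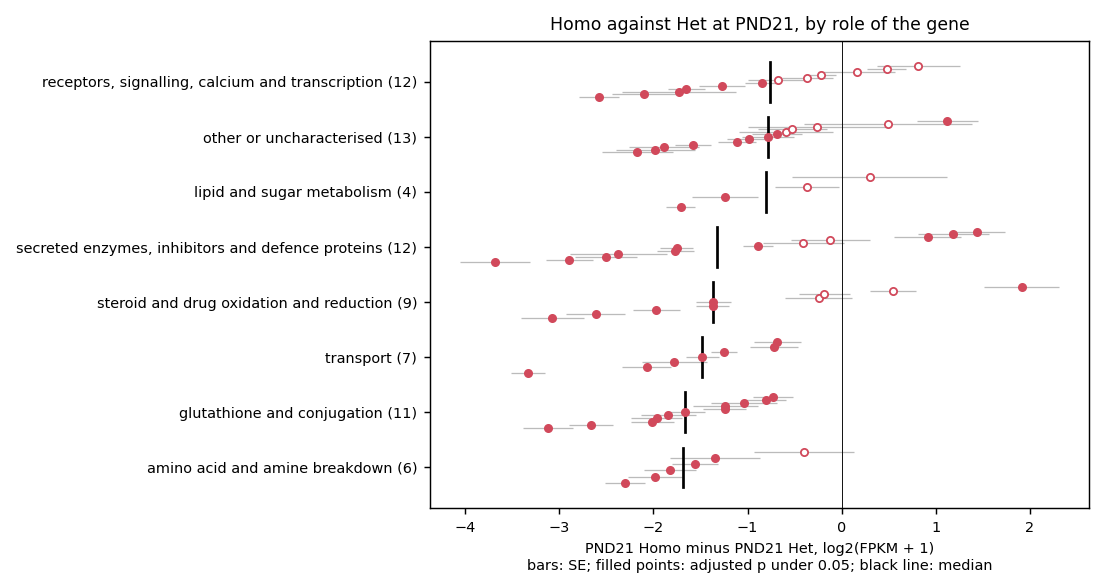
PND21 Homo minus PND21 Het in log2(FPKM + 1), 1 point per gene with its SE, in 8 groups by the role of the gene; filled points passed the test and the black line is the group's median. All 11 genes of glutathione and conjugation and all 7 carriers lie to the left of 0, while secreted proteins run from Klk1c9 at −3.69 to Pigr at 1.44 and the enzymes of steroids and drugs reach Cyp4a8 at 1.91.

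A further 12 of the 74 genes are receptors, signalling proteins, calcium-binding proteins and transcription factors, of which 9 of 12 rose in Het and 5 of 12 in Homo. Gcgr, the glucagon receptor, at chr10:109707962-109716128, plus strand, was 8.77, 7.24, 7.17 and 6.31 FPKM at PND15 and 18.9, 22.2, 20.8 and 20.2 at PND21 in Het. In Homo it was 2.19, 2.43, 2.26 and 4.72 and then 1.97, 2.70 and 3.22, lower than Het at both ages without overlap. The difference between the ages was 1.37 ± 0.19 (SE, adjusted p = 7.6e-06) in Het and −0.07 ± 0.21 (SE, adjusted p = 0.88) in Homo, smaller, with a difference of −1.44 ± 0.29 (SE, adjusted p = 0.0025), lost in 1 of 8 other settings.

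Nr1d1, the clock repressor REV-ERB alpha, rose in Het by 1.69 ± 0.22 (SE, adjusted p = 2.8e-06), from 8.51, 10.8, 9.88 and 9.08 to 25.2, 34.6, 45.8 and 29.1 FPKM. In Homo it was 7.17, 8.87, 9.43 and 11.3 and then 17.3, 8.75 and 14.3, with overlap. Its rise was smaller in Homo, with a difference of −1.21 ± 0.33 (SE, adjusted p = 0.033), lost in 3 of 8 other settings and with any of 7 of 15 libraries left out. These were PND15 Het replicates 1 and 4, PND15 Homo replicates 2 and 4, PND21 Het replicates 2 and 3 and PND21 Homo replicate 2, and without the last it was −0.95 (adjusted p = 0.11 in limma). Nr1d1 overlaps Thra on the other strand, and the labels name no hour of collection. Of 22 other tested clock genes 7 rose and 4 fell in Het (11.4% and 7.28% of genes tested). In Homo 3 rose (7.3%).

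Tlr12, a toll-like receptor, rose in Het by 2.03 ± 0.18 (SE, adjusted p = 2.2e-09) to 11.3, 6.66, 11.1 and 7.61 FPKM and reached 1.44, 3.16 and 2.15 in Homo, a rise smaller, with a difference of −1.48 ± 0.27 (SE, adjusted p = 0.001), lost in 2 of 8 other settings. Calb1, the calbindin of the distal tubule, was 627, 612, 544 and 691 FPKM at PND21 in Het and 96.7, 298 and 221 in Homo. Its PND15 Het values of 271, 352, 80.3 and 123.7 spread widely, and it rose in Het by 1.81 ± 0.56 (SE, adjusted p = 0.022). Rgn, the gene of regucalcin, rose in Het by 1.56 ± 0.31 (SE, adjusted p = 0.00064) and in Homo the difference was 0.26 ± 0.34 (SE, adjusted p = 0.7). Rasgef1b and Errfi1 passed the test in neither genotype.

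Sgk1, the kinase induced by glucocorticoids and aldosterone, was 36.4, 39.8, 41.99 and 41.5 FPKM at PND15 and 72.4, 153 and 174 at PND21 in Homo, a rise of 1.62 ± 0.44 (SE, adjusted p = 0.011). In Het it was 43.3, 118.7, 45.2 and 37.3 and then 123.9, 67.2, 46.8 and 62.7, with overlap and a difference of 0.37 ± 0.41 (SE, adjusted p = 0.58). The difference between the rises, 1.25 ± 0.60 (SE, adjusted p = 0.28), did not pass. Without PND15 Het replicate 2, the highest of its group, the Het difference of Sgk1 was 0.74 (adjusted p = 0.21 in limma) and the difference between the rises 0.88 (adjusted p = 0.44). Zfp354a, a zinc finger gene, rose by 1.35 ± 0.27 (SE, adjusted p = 0.0007) in Homo and 0.83 ± 0.25 (SE, adjusted p = 0.019) in Het, and the difference between the rises, 0.51 ± 0.37 (SE, adjusted p = 0.52), did not pass. Without PND15 Het replicate 2, also its highest there, Zfp354a rose by 1.06 in Het (adjusted p = 0.0029 in limma). Il34, a ligand of the CSF1 receptor, was 23.8, 16.7, 19.98 and 11.4 and then 44.3, 31.3 and 32.7 FPKM in Homo, and rose in both genotypes, as did Csf2rb, the shared receptor chain for GM-CSF, and Fmnl1, a formin of leukocytes. Among 24 other tested entries of glucocorticoid target genes 1 rose and 3 fell in Het (11.4% and 7.28% of genes tested). In Homo 3 rose and 2 fell (7.3% and 5.39%).

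The last 13 genes are of other or uncharacterised function; 7 of 13 rose in Het and 4 of 13 in Homo. Steap4, a metalloreductase, rose in both, from 4.28, 4.51, 5.44 and 3.65 to 14.2, 16.9 and 18.4 FPKM in Homo, and was higher there than in Het (10.8, 6.59, 4.87 and 6.85) by 1.12 ± 0.32 (SE, adjusted p = 0.0053). Ccdc152, Eri2 and Fam180a rose in both genotypes. Hbq1b, a theta globin gene, rose in Het by 1.48 ± 0.35 (SE, adjusted p = 0.0026) and was not called in Homo. Its difference between the rises was −1.61 ± 0.51 (SE, adjusted p = 0.073). Beside it, 9 of 9 tested erythroid and blood markers were lower in Homo at PND21, against 20.5% of genes tested. Tmigd1, a membrane protein of epithelial brush borders, and AABR07061345.1 were also called in Het and not in Homo, where they differed by 0.53 ± 0.19 (SE, adjusted p = 0.063) and 0.32 ± 0.42 (SE, adjusted p = 0.71). For these the difference between the rises did not pass, at −0.31 ± 0.26 (SE, adjusted p = 0.58) and −0.82 ± 0.57 (SE, adjusted p = 0.5). The rises of Mpv17l, AABR07031691.1 and AC107096.1 were called in neither genotype.

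Of these 13 genes, 3 met the rule through 1 or 2 WT libraries. LOC100911774, tubulin-folding cofactor B-like, was 0.518, 0.307 and 20.5 FPKM in WT at PND21 and also reached 1.04, 30.2, 23.6 and 0.646 in the PND15 Homo libraries. LOC100911713, protein C10-like, was 2.70, 5.21 and 86.4 in WT. LOC100910318 was 28.9, 3.25 and 29.9 in WT at PND21 and 25.3, 3.85, 3.55 and 3.14 in Het at PND15. None of these 3 rose in Het or in Homo. The WT means of LOC100911774 and LOC100911713 describe a single library, and that of LOC100910318 describes 2.

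Values on both sides of the thresholds lay close together. Cml5, Eri2 and Fmnl1 had WT ratios of 2.52, 2.53 and 2.54, and just outside were Slc23a3 at 2.495, Dbp at 2.49 and Nmrk1 at 2.48. On level, Klk1c2, AABR07061345.1 and Serpinc1 were inside at 5.39, 5.84 and 6.16 FPKM, and AABR07025048.2, Olr1668 and Spatc1 outside at 4.47 FPKM each. With each WT library left out in turn, 50 genes kept membership throughout; of these, 41 rose in Het and 25 in Homo. Without PND21 WT replicate 3, the rule still found 74 genes, of which 57 were among the 74 here.

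From PND5 to PND15, 56 of 74 genes rose in Het and none fell, where 17.2% of genes tested rose and 16.7% fell, and 32 rose in Homo, where 14.5% did. In Homo 3 fell over that step, Klk1c9, Dnase1 and Cml5 (12.5% of genes tested fell). In TPM 54 rose in Het, where the calls over all genes went from 2794 higher and 2724 lower to 1672 and 4445. The median step of group means from PND5 to PND15 and from PND15 to PND21 was 1.41 and 1.11 log2 units in Het and 0.55 and 0.66 in Homo. For WT, whose values chose the genes, it was 0.86 and 1.57. The Het mean at PND15 was above the WT mean for 68 of 74 genes, with a median of 139% of WT, a description in which the PND15 WT mean was part of the rule.

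**Figure D5:**
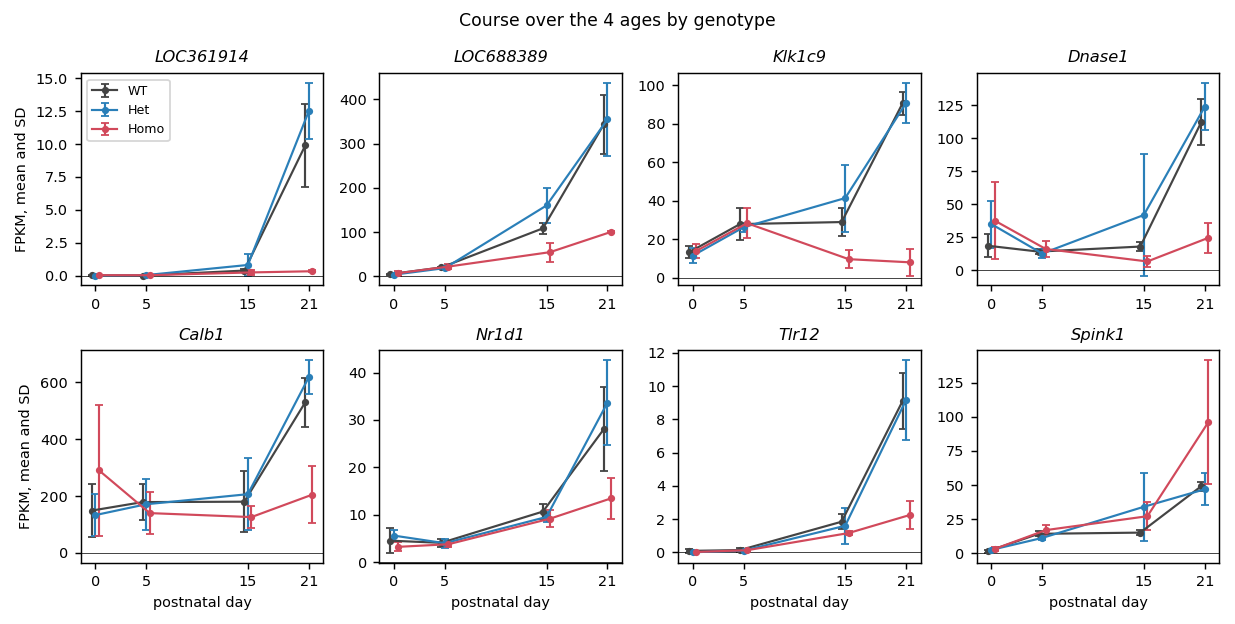
Mean FPKM and SD by postnatal day for 8 genes in WT, Het and Homo, shifted slightly sideways for legibility. LOC361914, LOC688389, Klk1c9, Dnase1, Calb1, Nr1d1 and Tlr12 end lower in Homo than in the other genotypes, Klk1c9 and Dnase1 are lower in Homo at PND15 than at PND5, and Spink1 ends higher in Homo.

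Averaged over the 74 genes, log2(FPKM + 1) at PND21 was 4.86, 5.01 and 5.24 in the WT libraries, 4.90, 4.95, 4.99 and 4.91 in Het and 3.44, 3.94 and 4.01 in Homo. At PND15 it was 3.46, 3.47, 3.32 and 3.21 in WT, 3.89, 4.13, 3.47 and 3.48 in Het and 2.83, 3.18, 2.90 and 3.17 in Homo. The PND15 Het libraries spanned 3.47 to 4.13, and 3.47 to 3.89 without replicate 2. Of the PND21 Homo libraries, replicate 1 lay under both ranges, while replicates 2 and 3 lay within the first and above the second. PND21 Homo replicate 1 was the lowest of its group, its proximal tubule markers summed to 4352 FPKM against 7753 and 7676 in replicates 2 and 3, and its title has another prefix than the other libraries.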

How the data were processed

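Poly-A RNA of 44 kidney cortex samples in 12 groups (genotype by postnatal day) was measured by RNA-seq. The deposited table gives FPKM per gene and library, made by the authors; per the submitters' processing notes featureCounts 1.5.0-p3, StringTie 1.3.3b, fastp and the aligner HISAT2 2.0.5 were used. Genome build and strand setting are not given in the sources used here. FPKM times gene length came out as whole reads for 100% of values within 0.01, with a library size 0.833 to 1.11 times the reads counted, so the FPKM were scaled by something other than these totals alone. The median-ratio size factor computed on the FPKM was 0.9999961 in every library. The libraries were thus already level by that measure, and scaling by it changed no call. Reads counted had a median of 14808572 per library. The same reads limit low genes, and summed FPKM ran from 490497 to 718285.

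Genes with at least 1 FPKM in at least 3 libraries were kept, 16283 of 32545. limma 3.58.1 (R 4.3.3, statmod 1.5.0) fitted 12 group means to log2(FPKM + 1), the pseudocount being 1, over all libraries with a trended, robust variance; fold changes on this scale understate low genes. Adjusted p-values are Benjamini-Hochberg over all genes tested, two-sided, threshold 0.05. The fit was tested on simulated data. Nothing says that replicates came from separate litters, so p-values measure the spread between these samples. A count-weighted fit on the recovered reads (limma's voom) called 1725 genes higher and 970 lower from PND15 to PND21 in Het and 1197 and 788 in Homo. Other settings were another pseudocount (0.1), other filters and scalings, fewer groups in the fit and each library left out in turn; a fit with PND21 Het limited to title numbers of 100 and above was chosen after seeing the data.

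The members and gene lists were chosen with earlier results of these data known. Genes were named by largest WT ratio, highest WT level, place in a gene list, largest positive and negative difference between the rises, smallest rise in Het or in Homo, and nearness to the thresholds; 22 more members are named because every role is described, chosen after their values were seen. Marker lists for adrenal (3.54 to 7.49 FPKM summed at PND21) and skeletal muscle (8.40 to 13.5) were also measured. Lymphocyte and plasma cell genes summed at PND21 to 14.0 to 19.2 FPKM in WT, 15.0 to 27.7 in Het and 63.9 to 70.1 in Homo. Neutrophil and mast cell genes summed to 18.3 to 25.1 in WT, 17.7 to 23.8 in Het and 116 to 136 in Homo. The part of these cells in the results was not tested. Promoter windows came from RefSeq (GRCr8), matched by symbol. Of the 74 members, 1 enters the counts but is not reported by itself here.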

Additional observations from a re-analysis of the deposited data

Results flagged for a closer look

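Some members had 1 library far from the other 3 of its group, by a gap larger than Dixon's 95% limit allows; chance alone marks about 1 in 20 groups of 4, and 24 of 296 were marked. In PND15 Het, replicate 2 was the high one for 11 genes: LOC361914 at 1.99 FPKM, Dnase1 at 111, Hsd11b1 at 39.9, Acmsd at 104.1, Gldc at 18.4, Sgk1 at 118.7, Spink1 at 71.4, Steap4 at 9.33, Rasgef1b at 7.97, Gsta2 at 34.1 and Prodh at 86.7. Replicate 1 of that group was high for LOC100910318 at 25.3 FPKM, AABR07031691.1 at 9.33, Klk1c9 at 67.5 and Fmnl1 at 9.95. In PND21 Het, replicate 4 was high for Scd1 at 36.1 and Hsd17b1 at 16.9, replicate 3 for Naglt1 at 188 and replicate 1 for Errfi1 at 244. In PND15 Homo, replicate 2 was high for Klk1c2 at 0.0826 and replicate 4 was high for Gcgr at 4.72 and low for Pigr at 2.06. In PND15 WT, replicate 2 was high for LOC100910318 at 0.861 and replicate 4 was low for Gclc at 289.

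The rise from PND15 to PND21 differed between genotypes, by limma's test of the difference itself, for 14 members. Homo minus Het was −2.87 log2 units for LOC361914, −2.52 for Klk1c2, −2.03 for Oosp1, −1.74 for Cyp1a1, −1.70 for Baat, −1.65 for Slc51a and −1.48 for Tlr12. It was −1.44 for Gcgr, −1.27 for Hsd17b1, −1.24 for Aadat, −1.21 for Nr1d1, −0.85 for Acss2 and −0.84 for F13b, and 1.58 for Pigr.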

How the results depend on the processing

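The rule found 0.332% of protein coding genes, and 0.193% (43 genes) in TPM, 0.713% (159) with at least 2 times, 0.188% (42) with at least 3 times and 0.534% with at least 1 FPKM; Het met it for 16 in TPM. The median rise in Het was 1.19 with a pseudocount of 0.1, 0.90 in TPM, 1.197 by voom, and 1.05 to 1.25 with a library left out. In Het 23 genes rose with only the PND21 Het library of title number 100 and above, and in Homo 20 with only the groups compared. Rises smaller in Homo numbered 8 with a pseudocount of 0.1, 8 with only the ages compared, 4 with only the groups compared, 4 by title number, and 8 (without PND21 Homo replicate 1) to 17 (without PND15 Homo replicate 1) with a library left out. Rises larger in Homo numbered 0 with a pseudocount of 0.1, by voom, with only the ages or groups compared and by title number, and 0 to 1 with a library left out. At PND21 the genes higher in Homo numbered 3 with a pseudocount of 0.1, 8 in TPM, 3 by title number and 3 to 5 with a library left out; at PND15 they numbered 5 in TPM. The cause of these changes was not tested. The group and title settings also hold fewer samples.

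Signs turned for the following genes, none of them called in the comparison concerned except AABR07061345.1 in Het. In Het, Leap2 had −0.10 in TPM and −0.21 to 0.28 with a library left out, and by title number LOC100911774 had −0.093, LOC100911713 −0.094 and AABR07061345.1 −0.19. For PND21 Homo minus Het, TPM gave Fmnl1 0.019, Adamtsl2 0.12 and RGD1564865 0.054, and title number gave LOC100910318 0.17, RGD1564865 0.18 and Errfi1 −0.77. With a library left out that difference ran from −0.27 to 0.018 for Adamtsl2, −0.087 to 0.56 for Errfi1, −0.46 to 0.024 for LOC100910318, −0.39 to 0.0082 for RGD1564865, −0.93 to 1.34 for Scd1 and −0.66 to 0.11 for Zfp354a. The Homo rise with a library left out ran from −0.68 to 0.029 for AABR07031691.1, −0.36 to 0.30 for Aadat, −0.21 to 0.11 for Baat, −0.13 to 0.48 for Ces1d, −0.066 to 0.35 for Cyp1a1, −0.027 to 0.33 for F13b, −0.19 to 0.13 for Gcgr, −0.041 to 0.68 for Gsta2, −0.46 to 0.23 for Hbq1b, −0.038 to 0 for Klk1c2, −1.07 to 0.23 for Klk1c9, −0.87 to 0.059 for Oosp1 and −0.024 to 0.76 for Rgn. No paired analysis was possible because the labels give no pairing of animals. Genes under about 1 FPKM rest on few reads.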

Other observations

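Outside the protein coding genes, 4 of 10252 genes of other kinds met the same rule, all annotated as long intergenic RNAs. AABR07066188.1 had a mean of 93.01 FPKM at PND21 in WT and 40.9 in Homo. AABR07001025.1 had 14.6 in WT and 16.8 in Het and was listed at 0 in Homo. AABR07013477.2 had 8.37, 8.43 and 1.26 FPKM, and AABR07036556.1 had 7.21, 5.58 and 2.18, in WT, Het and Homo in that order.

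The rule applied to Homo means alone also picked 98 protein coding genes outside the 74. Leading by ratio was LOC299282, at 11.8 FPKM in Homo at PND21 and 0.307 at PND15, against 0.0605 in Het at PND21. Among the first were the antimicrobial lectin gene Reg3g, at 28.1 FPKM in Homo and listed at 0 in WT and Het at PND21, and the chemokine gene Ccl21, at 107 in Homo and 13.4 in Het. These values were chosen after they were seen and are a description with no test.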
